A study of Mus musculus with 2 samples.

Results

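The clustered histone genes were followed in 2 single-cell RNA libraries of mouse lung CD4 T cells. They were all genes whose symbol starts with Hist1h, Hist2h, Hist3h or Hist4h, which gave 67 of the 32285 genes counted: 6 of linker histone H1, 18 of H2A, 18 of H2B, 12 of H3 and 13 of H4. The UMIs of 60 members were seen in the cells and 7 members were at 0 in both libraries, while 29 members reached 50 UMIs over both libraries together and are named with their values. A UMI (unique molecular identifier) stands for 1 captured RNA molecule.

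H2A, H2B, H3 and H4 form the protein core around which DNA is wound in the nucleosome, and H1 binds the DNA that enters and leaves it. Most clustered histone genes are transcribed in S phase, when new DNA has to be packed, and lie in a few tandem clusters that keep many near-identical copies. Their mRNAs usually end in a conserved stem-loop, bound by the protein SLBP, in place of a poly(A) tail, while some members also make longer polyadenylated mRNAs. The kit used here primes on runs of A, so a member's UMIs count the molecules so captured and are not a measure of all of its mRNA.

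Both groups held wild-type donor CD4 T cells. The donors were sensitized to house dust mite (HDM) extract through the airways on day 0 and on days 7 to 11, and CD4 T cells were enriched from their lungs on day 14. After labelling with Cell Trace Violet, which every division dilutes, they were transferred into wild-type C57BL/6 hosts (the WT host) or MARCH1-/- hosts. The hosts were challenged with HDM extract, and dye-low donor cells were sorted from the lung at day 4 after challenge. MARCH1 is a membrane ubiquitin ligase of antigen-presenting cells, so the deletion was in the host and not in the cells sequenced. Each group was 1 library, and the sources used here do not give the number of animals behind it, so no test was possible and no p-value is given.

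A barcode was kept as a cell with 500 UMIs or more, 250 genes or more and no more than 10% of its UMIs from mitochondrial genes. There were 352 cells with 2571048 UMIs (median 6086.5 per cell) from the WT host and 156 cells with 1575581 UMIs (median 8017) from the MARCH1-/- host, and no cell barcode occurred in both libraries. Of 12 CD4 T cell markers, 12 were seen in each library, Cd8a and all 4 NK cell markers were at 0, and 2 of 12 markers of macrophages, monocytes and dendritic cells had any UMI. Cd8b1 was seen in 6.53% and 8.33% of cells, lung epithelium markers in 5.40% and 5.13%, and endothelium and stroma markers in 20.2% and 31.4% (42.4 and 47.6 CPM). The 8 B and plasma cell markers summed to 22.9 CPM in the WT-host library and 104 CPM in the MARCH1-/- library, with Ms4a1, Jchain and Pax5 among those at 0 in both, and ribosomal protein genes took 26.0% and 20.7% of the UMIs. The part of these differences in the histone values was not tested. Levels are given in CPM, UMIs scaled to a total of 1000000 over the same cells, with exact 95% Poisson intervals. Host ratios are log2 values of the MARCH1-/- library relative to the WT-host library, followed by an exact conditional binomial 95% interval in parentheses. All intervals cover counting error only and are too narrow for members concentrated in a few cells. Over the 6762 genes with at least 50 UMIs the median ratio was 0.25, which is the level to read the members' ratios against.

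The members were sorted first by the way their annotated transcripts end, since that bears on capture. In the GENCODE transcripts the stem-loop was found in 44 members, in 7 spellings, of which the commonest was shared by 26 members of H1, H2A, H2B and H3 and the next by 7 members of H4. The 10 members with the most UMIs among those with a stem-loop are shown with the 14 bases before it in lower case and the 16 bases of the stem-loop in capitals.
Hist1h2ap: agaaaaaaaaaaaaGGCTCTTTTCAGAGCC
Hist1h2ae: gtaaaaaaaacaaaGGCTCTTTTCAGAGCC
Hist1h1e: cccaacaacccaaaGGCTCTTTTCAGAGCC
Hist1h3c: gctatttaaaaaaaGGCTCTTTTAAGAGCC
Hist1h4d: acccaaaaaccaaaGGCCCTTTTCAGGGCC
Hist1h1c: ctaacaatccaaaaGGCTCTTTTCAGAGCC
Hist1h4h: cctacaaaaccaaaGGCCCTTTTCAGGGCC
Hist1h1d: tgaaaatctcaaacGGCTCTTTTCAGAGCC
Hist1h3f: acgtaaaccaaaacGGCTCTTTTAAGAGCC
Hist2h2aa1: cgagctcctaaaaaGGCTCTTTTCAGAGCC
The first of these stands out by its letters: 13 of the 14 bases before the Hist1h2ap stem-loop are A, and the transcript ends 3 bases after the loop. Hist1h2ae has 11 A in the same 14 bases, Hist1h4d 9, Hist1h3c, Hist1h4h, Hist1h3f and Hist1h1c 8, Hist1h1e and Hist1h1d 7 and Hist2h2aa1 6. Whether priming inside these runs gave the UMIs was not tested.

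Hist1h2ap and Hist1h1b were the members with the most UMIs in the 2 libraries, and the start of each carries promoter letters typical of its class. The 250 bases before the Hist1h1b start (RefSeq, GRCm38.p6, chr13:21780626-21780875, minus strand) and the 218 bases before the annotated Hist1h2ap transcript (chr13:21833508-21833725, minus strand) are given 5′ to 3′, with the searched motifs in capitals on either strand.
Hist1h1b: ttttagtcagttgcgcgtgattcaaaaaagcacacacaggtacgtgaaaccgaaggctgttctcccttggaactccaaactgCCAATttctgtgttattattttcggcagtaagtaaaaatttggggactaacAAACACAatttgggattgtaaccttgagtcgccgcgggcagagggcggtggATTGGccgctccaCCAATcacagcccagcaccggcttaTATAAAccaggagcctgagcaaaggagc
Hist1h2ap: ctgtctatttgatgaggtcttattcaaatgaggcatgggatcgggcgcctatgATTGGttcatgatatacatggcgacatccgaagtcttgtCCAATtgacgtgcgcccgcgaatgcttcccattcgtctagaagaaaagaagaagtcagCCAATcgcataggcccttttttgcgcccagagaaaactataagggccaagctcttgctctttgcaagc
The capitals mark CCAAT (read as ATTGG on the other strand), TATAAA and AAACACA, the AC box of H1 promoters. Among the 62 members with a RefSeq promoter, CCAAT was found in 51 (82.3%) against 33.8% of all promoters of the same length. It was in all 6 H1, all 18 H2A and all 16 H2B promoters but in 3 of 12 H4 promoters. AAACACA was in 5 of 6 H1 promoters against 6.25% of all, TATAAA in 46.8% of the members against 12.4% of all, and the octamer ATTTGCAT in 7 of 18 H2A and 6 of 16 H2B promoters against 1.60% of all. These are matches of letters and not measured binding.

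The members gave 16965 UMIs in the WT-host library, or 6598 CPM (6500 to 6699), and 7276 UMIs in the MARCH1-/- library, or 4618 CPM (4512 to 4725). The ratio was -0.51 (-0.55 to -0.48), and -0.77 against the median gene. That sum hid opposite directions, which are given by type below: H1 was higher in the MARCH1-/- library, H2A and H3 were lower, and the intervals of H2B and H4 held 0. Against the median gene H2B stood at -0.28 and H4 at -0.15. The total turned to 0.49 when Hist1h2ap, Hist1h2ao and Hist1h2ae were left out (chosen after the data were seen), and to 0.05 without the 5% of cells highest in histone UMIs. Of the 29 members with at least 50 UMIs, 9 were at least 2-fold higher in the MARCH1-/- library, where 6.97% of all genes were, and 10 were at least 2-fold lower, where 2.81% of all genes were. Some of the 29 reached 50 UMIs through 1 library alone, so these counts are a description of the members named and not of all 67.

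**Figure D1:**
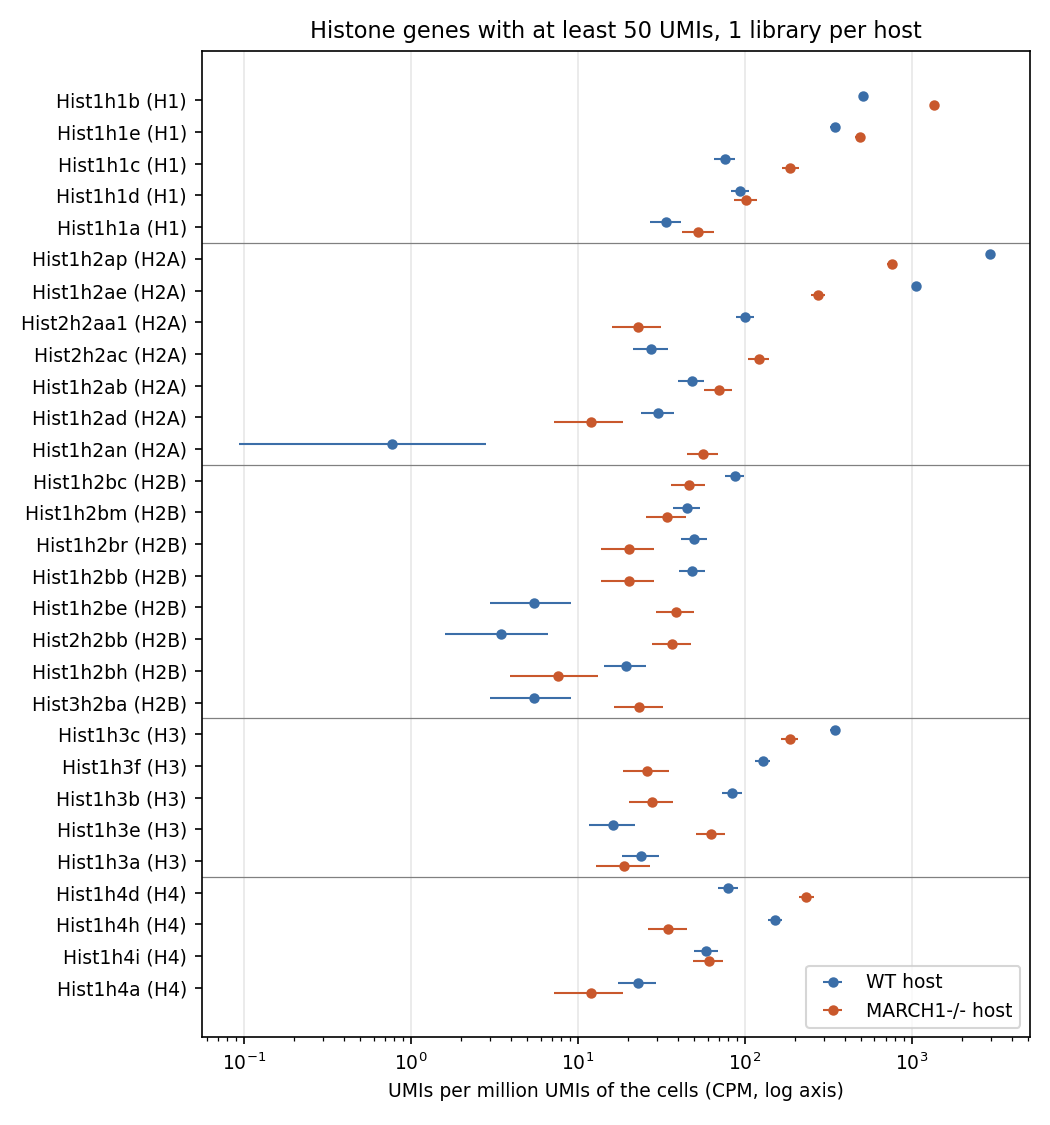
CPM of the 29 histone genes with at least 50 UMIs, on a log axis, grouped by histone type, in the WT-host library (blue) and the MARCH1-/- library (orange), with exact 95% Poisson intervals. Hist1h1b, Hist1h1c, Hist1h1e and Hist1h4d sit to the right in the MARCH1-/- library, while Hist1h2ap and Hist1h2ae sit to the left of their WT-host values.

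H1, the linker histone, was the type with the higher sum in the MARCH1-/- library: 3458 UMIs (2195 CPM) against 2736 UMIs (1064 CPM) from the WT host, a ratio of 1.04 (0.97 to 1.12). Hist1h1b, a somatic linker histone whose RNA follows S phase (chromosome 13, 21779883 to 21780625, minus strand, 1 transcript of 743 bases), carried most of it. It had 1323 UMIs (515 CPM) in 90 cells of the WT host and 2147 UMIs (1363 CPM) in 62 cells of the MARCH1-/- host, a ratio of 1.40 (1.31 to 1.505). Hist1h1c, a linker histone also made outside S phase, had 195 and 296 UMIs (75.8 and 188 CPM), a ratio of 1.31 (1.04 to 1.58). Hist1h1e had 889 and 772 UMIs (346 and 490 CPM), a ratio of 0.50 (0.36 to 0.64). Hist1h1a, with 87 and 83 UMIs (33.8 and 52.7 CPM), stood at 0.64, and Hist1h1d, with 242 and 160 UMIs (94.1 and 102 CPM), at 0.11 (-0.19 to 0.40). Hist1h1t, the testis linker histone, was at 0 in both libraries. The floor of 3 counts used here for a count of 0 is 1.17 CPM in the WT-host library and 1.90 CPM in the MARCH1-/- library.

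H2A went the other way, with 10982 UMIs (4271 CPM) from the WT host and 2214 UMIs (1405 CPM) from the MARCH1-/- host, a ratio of -1.60 (-1.67 to -1.54). Hist1h2ap (chromosome 13, 21833026 to 21833507, minus strand, 1 transcript of 482 bases) alone gave 7640 UMIs (2972 CPM) in 186 cells of the WT host and 1197 UMIs (760 CPM) in 59 cells of the MARCH1-/- host, a ratio of -1.97 (-2.06 to -1.88). Hist1h2ae (chromosome 13, 23570517 to 23571220, minus strand) gave 2752 and 436 UMIs (1070 and 277 CPM), a ratio of -1.95 (-2.10 to -1.81). These 2 genes hold the direction of the type: without them and the near-copy Hist1h2ao, the H2A ratio was 0.69.

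The other H2A genes were split between the libraries. Hist2h2aa1 of the Hist2 cluster (258 and 36 UMIs, ratio -2.13) and Hist1h2ad (78 and 19 UMIs, ratio -1.33) were lower in the MARCH1-/- library. Hist2h2ac, which lies in the same Hist2 cluster as Hist2h2aa1, was higher, with 71 and 192 UMIs (27.6 and 122 CPM) and a ratio of 2.14 (1.74 to 2.56). Hist1h2ab had 124 and 110 UMIs (48.2 and 69.8 CPM), a ratio of 0.53 (0.15 to 0.92). Hist1h2an had 2 UMIs from the WT host and 89 from the MARCH1-/- host, a ratio of 6.18 with an interval of 4.29 to 9.25. Hist1h2af, under the 50-UMI limit and singled out after its values were seen, had 1 and 47 UMIs (6.26, 3.71 to 11.59). Of the words in their last 300 bases, 85.2% and 81.1% are found in other genes too, in the measure of copies explained below.

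H2B summed to 749 UMIs (291 CPM) and 450 UMIs (286 CPM), a ratio of -0.03 (-0.20 to 0.14), with its members on both sides. Hist1h2bc (224 and 73 UMIs, ratio -0.91), Hist1h2br (128 and 32 UMIs, -1.29), Hist1h2bb (125 and 32 UMIs, -1.26) and Hist1h2bh (50 and 12 UMIs, -1.35) were lower in the MARCH1-/- library. Hist2h2bb (9 and 58 UMIs, 3.39), Hist1h2be (14 and 61 UMIs, 2.83) and Hist3h2ba (14 and 37 UMIs, 2.11) were higher there. Hist1h2bm (116 and 54 UMIs) stood at -0.40 (-0.89 to 0.08). The 4 lower genes started from 50 to 224 UMIs in the WT-host library and the 3 higher genes from 9 to 14.

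H3 had 1604 UMIs (624 CPM) and 566 UMIs (359 CPM), a ratio of -0.80 (-0.94 to -0.66). Hist1h3c (chromosome 13, 23744973 to 23745602, minus strand), the H3 gene with the most UMIs, had 892 and 293 UMIs (347 and 186 CPM), a ratio of -0.90 (-1.10 to -0.71). Hist1h3f (330 and 41 UMIs, -2.30) and Hist1h3b (217 and 44 UMIs, -1.60) were lower too, and Hist1h3a (62 and 30 UMIs) stood at -0.34 (-1.02 to 0.31). Hist1h3e ran against the rest, with 42 and 99 UMIs (16.3 and 62.8 CPM) and a ratio of 1.94 (1.41 to 2.50).

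H4 had 894 UMIs (348 CPM) and 588 UMIs (373 CPM), a ratio of 0.10 (-0.05 to 0.25), which moved to 0.62 without the 5% of cells highest in histone UMIs and to 1.014 with only members under 10% shared words. The sum again held opposite members, although the H4 genes encode the same protein. Hist1h4h had 391 and 55 UMIs (152 and 34.9 CPM), a ratio of -2.12 (-2.56 to -1.71), while Hist1h4d had 206 and 370 UMIs (80.1 and 235 CPM), a ratio of 1.55 (1.30 to 1.80). Hist1h4i (152 and 96 UMIs) stood at 0.04 (-0.34 to 0.42) and Hist1h4a (59 and 19 UMIs) at -0.93 (-1.76 to -0.16). The 31 members with 1 to 49 UMIs gave 273 UMIs in all from the WT host and 333 from the MARCH1-/- host.

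Few members made up most of the signal. In the WT-host library Hist1h2ap held 45.0% of the histone UMIs, the 2 leading members 61.3% and the 5 leading members 79.6%. In the MARCH1-/- library Hist1h1b led with 29.5%, the 2 leading members held 46.0% and the 5 leading members 67.6%.

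Histone UMIs were tied to the cell cycle. A cell was called cycling when 40 S-phase genes and 50 G2/M genes, none of them a member, together gave at least 0.5% of its UMIs, and it was called S-leaning or G2/M-leaning by the list whose share was larger relative to its mean over the cycling cells. This gave 242 non-cycling, 56 S-leaning and 54 G2/M-leaning cells from the WT host and 96, 35 and 25 from the MARCH1-/- host, with 118 and 43 cells between 0.25% and 1%, near the limit. The 110 cycling cells of the WT host held 94.1% of the histone UMIs at 13039 CPM, against 746 CPM in non-cycling cells, which is 17.5-fold (16.4 to 18.6). The 60 cycling cells of the MARCH1-/- host held 93.4% at 7183 CPM, against 758 CPM, which is 9.47-fold (8.63 to 10.4). On the log2 scale these are 4.13 and 3.24. They moved to 3.06 and 2.91 without Hist1h2ap, Hist1h2ao and Hist1h2ae, to 3.12 and 2.76 without the 5% of cells highest in histone UMIs, and to 2.97 and 2.80 with only members under 10% shared words. Cycling cells were deeper, with medians of 10619 and 14444 UMIs against 4922.5 and 6273.5 in non-cycling cells, which CPM corrects for in the mean only.

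The tie was also counted by member, among those with at least 50 UMIs in the cells of a library. Some reached that limit through the cycling cells alone, such as Hist1h3c. It had 14 UMIs in non-cycling cells of the WT host and 3 in those of the MARCH1-/- host. A member low in cycling cells could hardly enter, so the counts describe the members counted and not all members. In the WT-host library 22 of 24 members with at least 50 UMIs were at least 2-fold higher in cycling cells (6.79% of all genes) and 0 were 2-fold lower (6.27% of all genes). In the MARCH1-/- library 17 of 19 were at least 2-fold higher (9.5% of all genes) and 0 lower (6.93% of all genes). Hist1h2ap had 97.7% of its UMIs in cycling cells of the WT host and all but 12 of its 1197 UMIs in those of the MARCH1-/- host. The shares were 97.8% and 98.6% for Hist1h2ae and 97.7% and 95.9% for Hist1h1b. Over all genes, cycling cells held 1224034 of the 2571048 UMIs in the WT-host library and 946588 of the 1575581 in the MARCH1-/- library. These are the levels to read such shares against. Hist1h1c was not higher in cycling cells of the WT host, with 43.1% of its UMIs there, and had 67.9% in those of the MARCH1-/- host. Its log2 ratios of cycling over non-cycling cells were -0.26 and 0.49, the lowest of the members counted. The shares in cycling cells were also low for Hist1h2bc (71.9% and 68.5%) and Hist3h2ba (71.4% and 73.0%), and Hist2h2aa1 had 111 of its 258 WT-host UMIs in non-cycling cells.

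Within the cycling cells a minority carried the RNA. In the WT-host library 14 of 352 cells held 50% of the histone UMIs, and the 18 cells highest in histone share held 57.7%, of which 12 were G2/M-leaning and 6 S-leaning. In the MARCH1-/- library 9 of 156 cells held 50%, and the 8 highest held 35.7%. Members made up at least 1% of the UMIs in 39 cells of the WT host and 18 of the MARCH1-/- host, and all of these were cycling. The highest cell reached 6.70% in the WT-host library and 2.67% in the MARCH1-/- library. The median cycling cell stood far lower, at 0.208% and 0.276%.

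**Figure D2:**
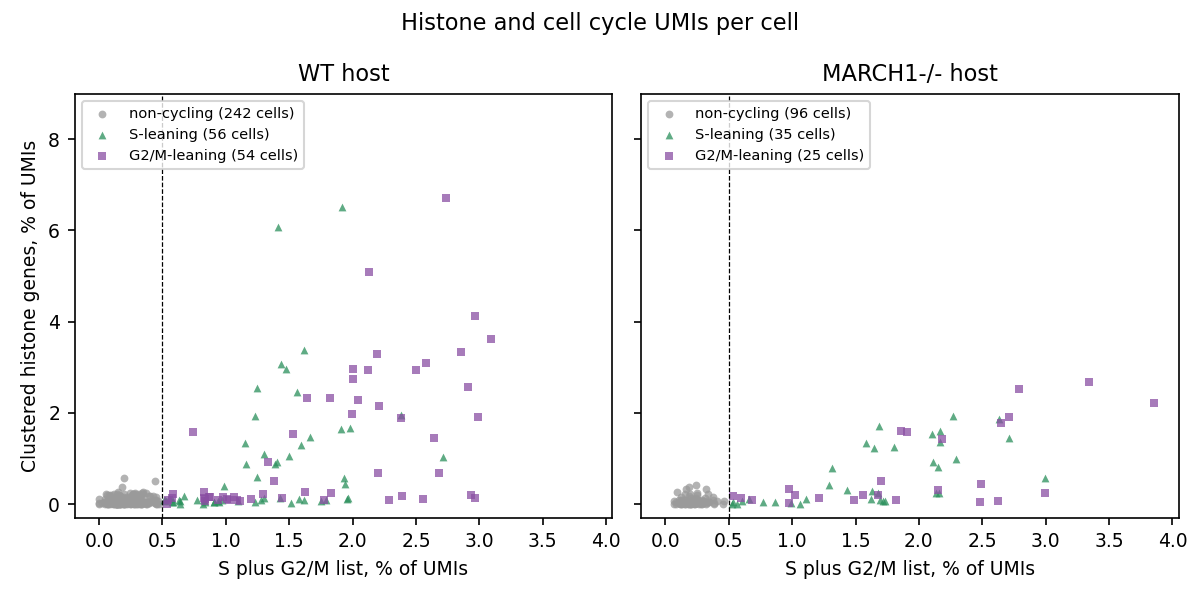
Share of each cell's UMIs from the clustered histone genes against the share from the S and G2/M lists, for the WT host (left) and the MARCH1-/- host (right), with 1 point per cell and the 0.5% limit for cycling as a dashed line. Cells at 1% histone or more lie right of the line in both panels, among many cycling cells that stay near 0, and the highest cells reach 6.70% and 2.67%.

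After each cell was thinned to 1000 UMIs, a member was seen in 80.7% of cycling cells (exact binomial interval 72.1 to 87.7%) and 44.0% of non-cycling cells (37.5 to 50.6%) of the WT host, with 1 and 10 shallower cells left out. In the MARCH1-/- host the shares were 78.3% (65.8 to 87.9%) and 41.7% (31.7 to 52.2%), with none left out. Before thinning they were 97.3% and 84.7% in the WT-host library and 96.7% and 81.2% in the MARCH1-/- library. Barcodes with under 100 UMIs, mostly droplets without a cell, also held histone RNA, with a mean of 0.0471 histone UMIs per barcode in the WT-host library and 0.0123 in the MARCH1-/- library. No cells of another type were separated here to give a background share, so the part of such RNA in the non-cycling cells was not tested.

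The step between S-leaning and G2/M-leaning cells depended on how the states were called and on the weight of each cell. Its size moved in the WT-host library, and its direction in the MARCH1-/- library. In the WT-host library S-leaning cells had 10523 CPM and G2/M-leaning cells 15637 CPM, a log2 ratio of S over G2/M of -0.57 (-0.62 to -0.53). Of 23 members with at least 50 UMIs there, 0 were 2-fold higher in S-leaning cells (2.72% of all genes) and 4 were 2-fold lower (2.78% of all genes). In the MARCH1-/- library the levels were 7403 and 6886 CPM, a ratio of 0.10 (0.03 to 0.17), with 1 of 19 members higher (2.99% of all genes) and 1 lower (2.61% of all genes). The direction in the MARCH1-/- library turned when each cell was weighted equally (-0.28), after thinning to 1000 UMIs (-0.39), when the higher raw share set the state (-1.03) and with scanpy's phase call (-0.023). The raw share also moved the WT-host value to -2.73.

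The host ratio of the total was below 0 in cycling cells and near 0 in non-cycling cells. Cycling cells gave a ratio of -0.86 (-0.90 to -0.82) and non-cycling cells 0.02 (-0.14 to 0.18), with medians over all genes of 0.27 and 0.21. It was -0.51 (-0.56 to -0.45) in S-leaning and -1.18 (-1.24 to -1.12) in G2/M-leaning cells. The ratio in S-leaning cells turned to 0.57 without Hist1h2ap, Hist1h2ao and Hist1h2ae, to 0.17 without the 5% of cells highest in histone UMIs and to 0.79 when the higher raw share set the state. With only members under 10% shared words (explained with the copies below), S-leaning cells stood at 1.25 and G2/M-leaning cells at 0.37. In cycling cells 8 of 28 members were at least 2-fold higher in the MARCH1-/- library (8.04% of all genes) and 13 were lower (3.22% of all genes). In non-cycling cells 1 of 7 members was higher (7.05% of all genes) and 3 were lower (3.91% of all genes). The value near 0 in non-cycling cells again summed opposite directions. There Hist1h2ap made up 17.7% of the histone UMIs in the WT-host library and 2.52% in the MARCH1-/- library. For Hist1h1b these shares were 3.08% and 18.7%.

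H2A was below 0 in each state, and H1 was above 0. H1 stood at 1.28 in S-leaning, 0.25 in G2/M-leaning and 0.84 in non-cycling cells, and H2A at -1.64, -2.14 and -1.80. The median gene stood at 0.24, 0.26 and 0.21 in these states, so H1 in G2/M-leaning cells was level with it. H3 was lower in both cycling groups, at -0.99 and -1.22, and stood at -0.21 (-0.98 to 0.51) in non-cycling cells. H2B stood at 0.17 (-0.11 to 0.45) in S-leaning and -0.57 (-0.82 to -0.32) in G2/M-leaning cells.

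**Figure D3:**
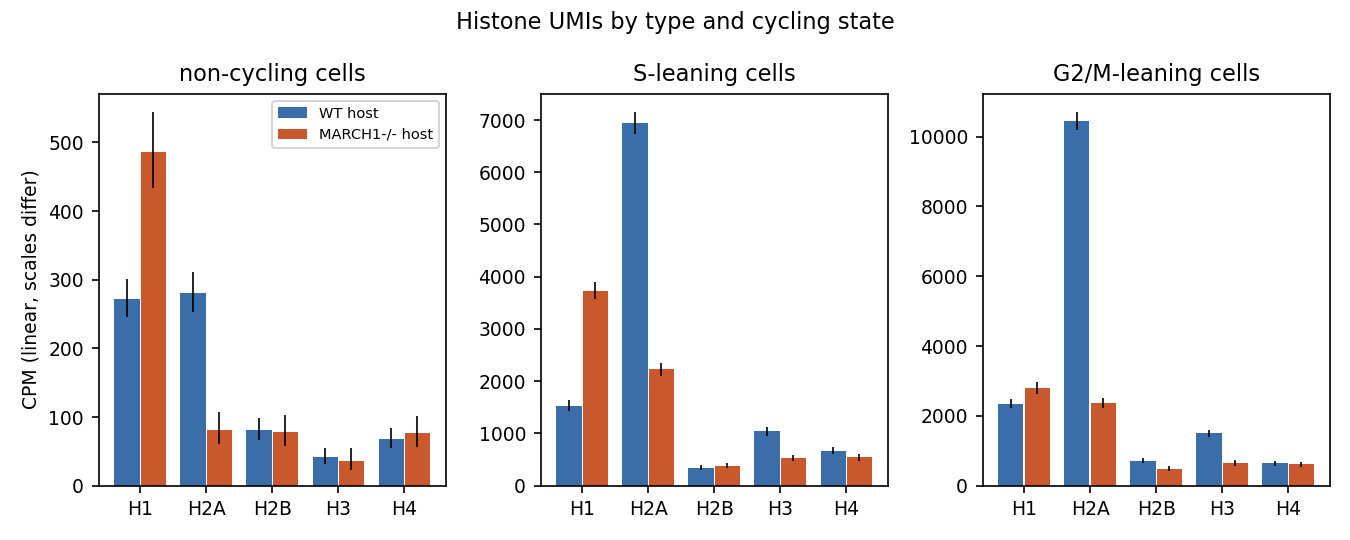
CPM of the histone types in non-cycling, S-leaning and G2/M-leaning cells of the WT host (blue) and the MARCH1-/- host (orange), with exact 95% Poisson intervals and a linear axis that differs between panels. H2A is the tallest bar of the WT-host library in each panel and H1 the tallest of the MARCH1-/- library, with 6940 CPM of H2A and 3729 CPM of H1 in S-leaning cells of the 2 libraries.

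The opposition in the leading pair is also given cell by cell. The pair was chosen after its values were seen, and these are the same UMIs, so this shows the spread over cells and is not further support. Among cycling cells with at least 20 UMIs of Hist1h2ap and Hist1h1b together, Hist1h2ap made up 70.3% to 98.1% of the pair in 47 cells of the WT host, with a median of 85.5%. In 29 cells of the MARCH1-/- host it made up 13.8% to 66.2%, with a median of 39.4%. No cell of one library fell in the range of the other, whether S-leaning or G2/M-leaning. Cells of a library share its preparation, so this is 1 difference between 2 libraries and not 76 observations of it.

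**Figure D4:**
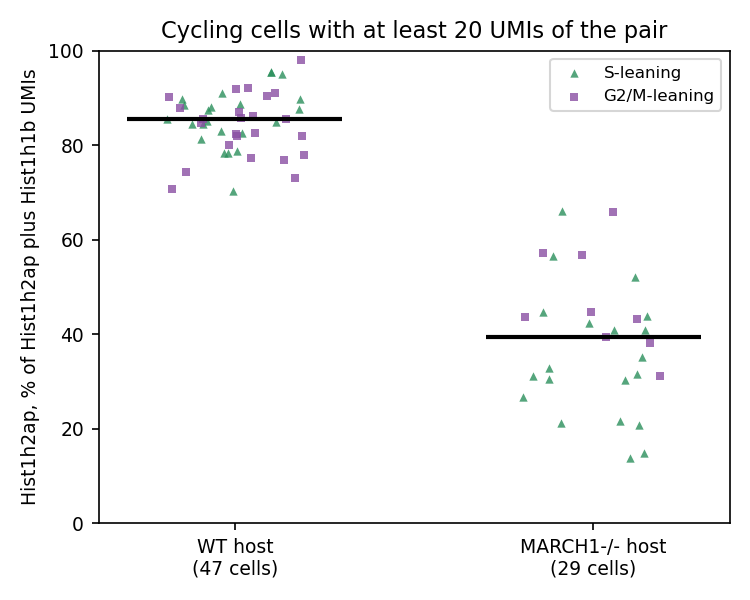
Hist1h2ap as a percent of the Hist1h2ap and Hist1h1b UMIs of each cycling cell with at least 20 UMIs of the pair, by host, with a line at the median and marks by state. The WT-host cells lie between 70.3% and 98.1% and the MARCH1-/- cells between 13.8% and 66.2%.

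The make-up of the histone UMIs in barcodes with under 100 UMIs was near that of the cells of the same library, more closely so in the WT-host library. These barcodes held 7831 histone UMIs in the WT-host library and 1484 in the MARCH1-/- library. Hist1h2ap made up 43.1% of them (42.0 to 44.2%) in the WT-host library, next to 45.0% in its cells, and 19.3% (17.3 to 21.4%) in the MARCH1-/- library, next to 16.5% in its cells. Hist1h1b made up 6.99% next to 7.80%, and 26.3% next to 29.5%. Hist1h2ae made up 16.7% next to 16.2%, but 9.16% (7.74 to 10.7%) next to 5.99% in the MARCH1-/- library. By type, H2A made up 64.1% next to 64.7%, and 35.8% next to 30.4%. H1 made up 15.8% next to 16.1%, and 42.5% next to 47.5%. The ratio between the libraries in these barcodes was -1.83 for Hist1h2ap, 1.24 for Hist1h1b, -1.53 for Hist1h2ae, -1.02 for Hist1h3c, 1.69 for Hist1h4d and -2.07 for Hist1h4h. Hist1h1e differed, at -0.06 (-0.35 to 0.23) there and 0.50 in cells. Both sets of barcodes come from the same libraries, so the values stand side by side and are not a second sample. The host and the library preparation cannot be told apart with 1 library per group.

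**Figure D5:**
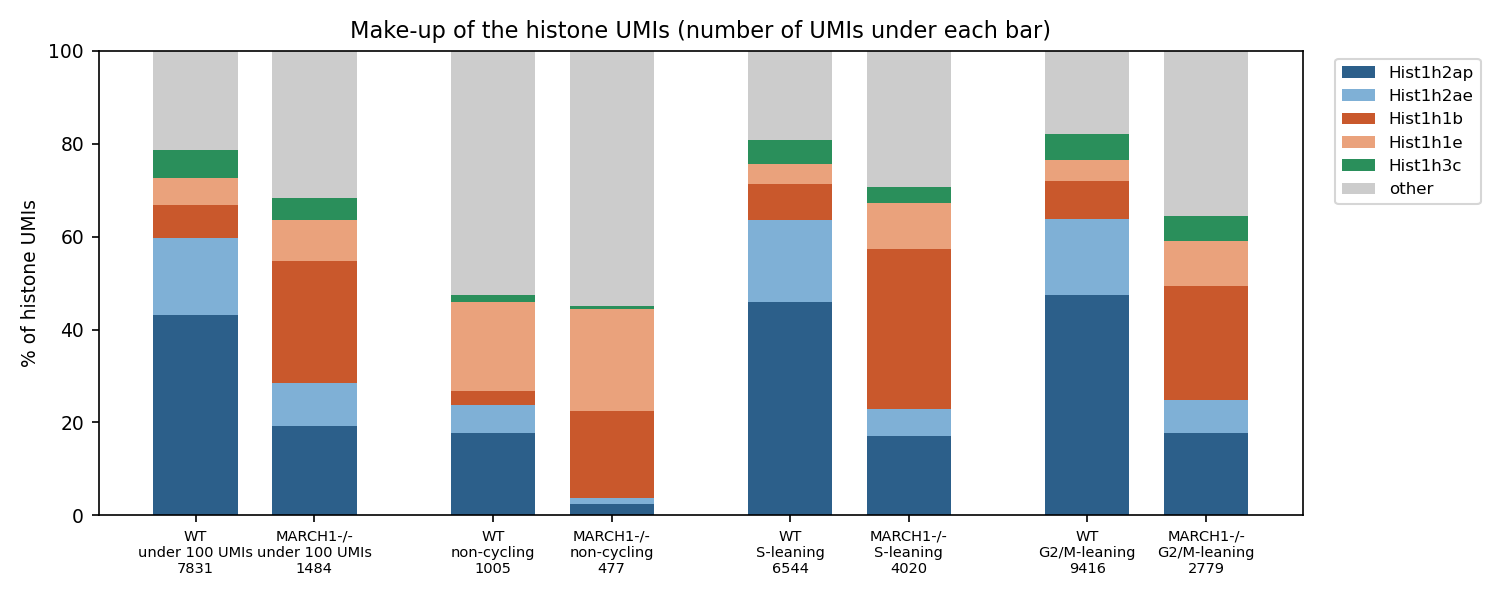
Share of the histone UMIs from the 5 leading members in barcodes with under 100 UMIs and in non-cycling, S-leaning and G2/M-leaning cells, side by side for the WT-host and MARCH1-/- libraries, with the number of histone UMIs under each bar. Hist1h2ap (dark blue) is the largest named part in the WT-host cycling cells, with 45.9% and 47.4%, and Hist1h1b (dark orange) in the MARCH1-/- cycling cells, with 34.3% and 24.5%.

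Grouped by transcript end, the members fell apart in the direction of their sums. The 22 members that end within 100 bases after the stem-loop gave 3914 CPM in the WT-host library and 1355 CPM in the MARCH1-/- library, a ratio of -1.53 (-1.60 to -1.46). The 22 members whose transcript runs further gave 1961 and 1578 CPM, a ratio of -0.31 (-0.38 to -0.24), and the 23 members whose annotated transcript holds no stem-loop gave 724 and 1684 CPM, a ratio of 1.22 (1.13 to 1.31). The first sum is mostly Hist1h2ap and the last mostly Hist1h1b, whose annotated 3′ UTR has 0 bases. The same holds for other members of the last group, among them Hist1h3h, Hist1h3i, Hist1h2an and Hist1h4k. Their annotated transcripts stop at the stop codon, so a stem-loop after it could not be found. The last group is therefore partly set by where the annotation ends. Within a group the members did not move as one: Hist2h2ac ends within 100 bases of the stem-loop, as Hist1h2ap does, and had a ratio of 2.14 against -1.97. Among the 10 members shown, those with 8 A before the loop stood at 1.31 (Hist1h1c), -0.90 (Hist1h3c), -2.12 (Hist1h4h) and -2.30 (Hist1h3f). Hist1h2ap with 13 A and Hist1h2ae with 11 A stood at -1.97 and -1.95. Whether the transcript end or the A before the loop bears on the ratios was not tested.

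Near-identical copies limit what a single symbol means. A word of 31 bases taken from the last 300 bases of a transcript was called shared if another gene's transcript held it. For members annotated without a 3′ UTR, such as Hist1h2an, these bases are coding sequence. At least 50% of the words were shared in 37 of the 67 members, which gave a ratio of -1.19 (-1.25 to -1.13), and under 10% in 20 members, which gave 1.09 (1.015 to 1.16). Hist1h2ap is in the first group, and Hist1h1b, which shares no such word, in the second.

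All words of Hist1h2ap were shared with Hist1h2ao, which was given 1 UMI from the WT host and 0 from the MARCH1-/- host, so the 2 genes can be read only as a sum (7641 and 1197 UMIs, -1.97). Hist2h2aa1 and Hist2h2aa2 share all words as well, and all 258 and 36 UMIs were given to Hist2h2aa1. Hist1h3e and Hist1h3f also share all words, yet had ratios of 1.94 and -2.30. Their sum was 372 and 140 UMIs, a ratio of -0.70 (-0.99 to -0.42). The 3′ end of Hist1h1e overlaps an annotated exon of Hist1h2be on the same strand, so all of its last words are shared with it, and the sum of the pair stood at 0.59 (0.45 to 0.73). Reads in such stretches cannot be placed with one gene, so the single values of these members are uncertain.

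By position, the 23 members in the proximal part of the Hist1 cluster on chromosome 13 had a ratio of -0.62 (-0.68 to -0.57) and the 31 in its distal part -0.47 (-0.53 to -0.41). The 10 Hist2 members on chromosome 3 stood at 0.42 (0.20 to 0.64) and the 2 Hist3 members on chromosome 11, with 21 and 54 UMIs, at 2.07 (1.32 to 2.87). Hist4h4 on chromosome 6 had 5 and 2 UMIs. H2A and H2B genes often start back to back, and 12 such pairs were found within 500 bases of each other. Hist1h2ap and Hist1h2br, whose starts lie 236 bases apart around the promoter shown, were both lower in the MARCH1-/- library (-1.97 and -1.29). Hist1h2ae and Hist1h2bg, 176 bases apart, were not alike, at -1.95 and 1.44 (12 and 20 UMIs of Hist1h2bg).

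The other histone and cell cycle genes are given from lists drawn up for the pathway. Most of all genes lay above 0 in the host ratio too, since their median was 0.25. Counts of list genes above 0 are to be read against that. At least 2-fold higher were 6.97% of all genes, and 2.81% were at least 2-fold lower. Of 11 replication-independent histone genes, which are polyadenylated and made outside S phase too, 9 had at least 50 UMIs: 8 of them were above 0 in the host ratio, 2 at least 2-fold higher and 0 lower, with a median of 0.82. H2afz stood at 0.82, H3f3b at 0.84 and H3f3a at 0.96, while H2afj, an H2A variant, stood at -0.57. H2afz had 1237 CPM in the WT-host library and 2183 CPM in the MARCH1-/- library, and was 1.33 and 1.78 higher on the log2 scale in cycling cells.

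Of 16 genes for histone transcription and 3′ end processing, 12 had at least 50 UMIs and all 12 were above 0, with a median of 0.49 and 2 at least 2-fold higher. Slbp, which binds the stem-loop, had 404 and 283 UMIs, a ratio of 0.19, and Casp8ap2, a factor of the histone locus body, 199 and 179 UMIs, a ratio of 0.55. Of 21 histone chaperones and assembly factors, 20 had at least 50 UMIs and 17 were above 0, with a median of 0.38. Npm1 stood at 0.35, Set at -0.24, Nap1l1 at 0.06 and Anp32e at 0.35. The S-phase list itself had a median of 0.72, with 37 of 39 genes above 0 and 8 at least 2-fold higher, and the G2/M list a median of 0.51, with 40 of 43 above 0 and 6 at least 2-fold higher. Of the genes of these 5 lists with at least 50 UMIs, 0 were 2-fold lower, where 2.81% of all genes were. The medians of all 5 lists were above the median gene at 0.25, while the median of the 29 members was -0.34. These values are over all cells, of which 31.25% (WT host) and 38.5% (MARCH1-/- host) were cycling. Medians of the lists within cycling cells, where the median gene stood at 0.27, are not given. There the gene with the most UMIs in each list stood at 0.27 (Pcna), -0.37 (Hmgb2), 0.75 (H2afz), 0.07 (Slbp) and 0.54 (Npm1). In all cells these stood at 0.46, -0.06, 0.82, 0.19 and 0.35. As sums the lists ranged from 0.26 for the chaperones, level with the median gene, to 0.73 for the replication-independent histones. The sums of H2A, H3, H2B and H4 and the total of the members were below 0.25, and the sum of H1 was above it. The total, H2A and H4 did not stay below it under every setting, as given with the settings at the end.

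Ranked by the lower of the Spearman correlations in the 2 libraries with the histone share of each cell, the most alike of 2895 genes with at least 200 UMIs were Birc5, Pclaf, Kif11, Ube2c, Stmn1, Hmgb2, Cdca8, Mki67, Cenpe and Knl1. Birc5 had a rho of 0.52 over 352 cells and 0.62 over 156 cells, and Knl1, the tenth, 0.48 and 0.58. Cells share a library and differ in depth, so these are descriptions. Of the 10 genes, 7 are in the G2/M list and 0 in the S list. How many of the 2895 genes are in each list is not given. The ranking runs over cycling and non-cycling cells together, so these counts do not set G2/M against S.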

How the data were processed

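Both deposited matrices hold raw UMI counts as whole numbers, for every barcode and not only for cells. Per the labels' protocols the kit was 10x Chromium 3' v3.1. Per the submitters' processing notes, counting used build mm10 and Cell Ranger 3.1.0, but version 4 per the file headers. The sources used here do not give the annotation or how reads of near-identical copies were placed. Counts were summed over cells with pandas 2.3.3 and scipy 1.17.1 and scaled to CPM. Members with at least 50 UMIs over both libraries were named, others given by counts, and of each other list up to 4 genes with the most UMIs. A 2-fold ratio was the size counted. The members and lists were chosen with earlier results of these data known. Doublets were called with Scrublet in scanpy 1.11.5 (5 cells in each library) and kept. Positions, transcripts and stem-loops came from GENCODE M21 (GRCm38), and promoters from RefSeq, of which 62 of 67 members matched. The ratio code was tested on simulated data. Alternatives covered cell limits, weights, thinning, scaling, state calls and members counted.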

Additional observations from a re-analysis of the deposited data

Results flagged for a closer look

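The log2 ratio of S-leaning over G2/M-leaning cells had opposite signs in the 2 libraries for the total and for 3 members. The total stood at -0.57 for the WT host and 0.10 for the MARCH1-/- host, Hist1h2ap at -0.62 and 0.056, Hist1h1b at -0.68 and 0.59, and Hist1h1e at -0.59 and 0.15. With 1 library per group the difference was not tested. For the total it is not kept under 4 settings, where the MARCH1-/- value is below 0 as well: -0.28 with each cell weighted equally, -0.39 thinned to 1000 UMIs, -1.03 with the raw share and -0.023 with scanpy's phase call. Outside the cells, 69 barcodes of the WT-host library from 100 UMIs up to the limit for a cell held 21 histone UMIs. This was out of 19528 UMIs (1075 CPM) and above the floor of 3 counts used here for a count of 0. Those of the MARCH1-/- library held 0 in 6 barcodes with 1498 UMIs, which allows up to 2463 CPM, so the libraries cannot be compared there.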

How the results depend on the processing

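No paired analysis was possible because each group has 1 library. Under every setting run for it, the H1 ratio stayed above 0, the H3 ratio below 0 and the cycling over non-cycling ratio above 0 in both libraries. No H3 value is given with only members under 10% shared words, and the 5 named H3 members share 47.0% to 100% of theirs. With only members under 10% shared words the ratios were 1.09 for the total and 0.88 for H2A, which turned, 1.25 for H1 and 1.014 for H4, and by state 0.98 in non-cycling, 1.25 in S-leaning and 0.37 in G2/M-leaning cells, of which the last 2 turned; cycling over non-cycling was 2.97 (WT host) and 2.80 (MARCH1-/- host), and S over G2/M 0.29 (MARCH1-/- host). Without Hist1h2ap, Hist1h2ao and Hist1h2ae, chosen after seeing the data, the total was 0.49, H2A 0.69 and S-leaning cells 0.57, all turned, with 0.36 in non-cycling and -0.13 in G2/M-leaning cells, and cycling over non-cycling 3.06 and 2.91. Without the 5% of cells highest in histone UMIs the total was 0.051 and S-leaning cells 0.17, both turned, with H1 1.39, H2A -1.08, H2B 0.21, H3 -0.24 and H4 0.62, cycling over non-cycling 3.12 and 2.76, and S over G2/M -0.44 and 0.88. With each cell weighted equally the total was -0.34, H2A -1.45, H3 -0.61, H4 0.37 and G2/M-leaning cells -0.76, cycling over non-cycling 3.79 (WT host), and S over G2/M turned to -0.28 (MARCH1-/- host). Thinned to 1000 UMIs, H1 was 0.95, H2B -0.42, H3 -0.59, H4 0.45, S-leaning cells -0.73 and G2/M-leaning cells -0.84, cycling over non-cycling 3.97 and 3.05, and S over G2/M -0.50 and, turned, -0.39. With the median gene subtracted the total was -0.77, H1 0.79, H2A -1.86, H2B -0.28, H3 -1.05, H4 -0.15, cycling over non-cycling 4.24 (WT host), and the host ratio -0.19, -0.75 and -1.44 in non-cycling, S-leaning and G2/M-leaning cells. With a total without ribosomal protein genes the total was -0.62, H1 0.94, H2A -1.70, S over G2/M -0.52 (WT host), and S-leaning and G2/M-leaning cells -0.62 and -1.25. At a mitochondrial limit of 5% the total was -0.71, H1 0.88, H2A -1.86, H3 -1.02, cycling over non-cycling 3.09 and S over G2/M 0.31 (both MARCH1-/- host), and S-leaning and G2/M-leaning cells -0.62 and -1.49. With cycling called from 0.25%, cycling over non-cycling was 3.95 and 3.04, S over G2/M 0.35 (MARCH1-/- host), non-cycling cells 0.21 and S-leaning cells -0.23; from 1% these were 4.26 and 3.41, S over G2/M -0.38 (WT host) and S-leaning cells -0.71. With the higher raw share for S against G2/M, S over G2/M was -2.73 and, turned, -1.03, S-leaning cells turned to 0.79 and G2/M-leaning cells were -0.91. With scanpy's phase call, S over G2/M was -1.03 and, turned, -0.023, and S-leaning cells -0.16. At 30 bases 8 members ended at the stem-loop. The cause of these changes was not tested. The number of cells (352 and 156) and 1 library per group limit all ratios, since counting intervals leave out variation between cells and animals.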
